A study of Mus musculus with 15 samples.

Results

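Lat2, Blnk and 7 further adaptors, kinases and enzymes of immunoreceptor signalling were followed in mouse alveolar macrophages, the phagocytes that live in the air sacs of the lung. The set of 9 genes held the adaptors Lat2, Blnk, Lcp2 and Grap2, the kinases Syk, Lyn and Btk, the phospholipase Plcg2 and the signalling chain Tyrobp. A gene was measured where a probe of the array was annotated to its symbol alone. This gave 1 probe for each of 8 genes, among 17225 probes and 13273 features tested, and all 8 had enough values to be tested. No probe of the platform annotation was assigned to Lyn, which was not analysed here. The set was put together because earlier results of the same arrays had shown Lat2 high in beta6 null macrophages and lower with TGFb1, and Blnk high in beta6 null. The values of all members in these 2 comparisons are therefore given as a description, without a p-value.

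Many activating receptors of macrophages carry no enzyme of their own and signal through a partner chain such as Tyrobp, also called DAP12, whose tail holds a tyrosine motif named ITAM. When the receptor is engaged, Src family kinases such as Lyn phosphorylate the motif, and Syk docks there and phosphorylates adaptor proteins. The adaptors gather Btk and Plcg2 into one complex, and Plcg2 then cleaves a membrane lipid to start calcium and protein kinase C signals. In this scheme Lat2, also called NTAL or LAB, is the adaptor held in the membrane, while Blnk (SLP-65), Lcp2 (SLP-76) and Grap2 (Gads) are cytosolic. Blnk is best known from B cells and Lcp2 from T cells, and both are also made in macrophages.

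The data were 15 spotted oligonucleotide arrays, on each of which mouse alveolar macrophage total RNA was set against a macrophage reference RNA. The 3 groups of 5 arrays were integrin beta6 deficient mice reconstituted with TGFb1 (labelled b6-/-TGFb+/+Dox, here the TGFb1 group), integrin beta6 deficient mice (b6-/-Dox, here beta6 null) and wild type mice (b6+/+Dox). All 3 groups had received doxycycline, and wild type mice with TGFb1 were not among them. The integrin alphavbeta6 of lung epithelium is known to activate latent TGFb, a factor that restrains macrophages. The comparisons ask what differs in macrophages without the integrin, and what differs when TGFb1 is supplied in its absence. The labels give no promoter for the TGFb1 allele and no age, and they do not say that each array is a separate animal. The p-values therefore speak only of the spread among these arrays, part of which may be technical. The sex of the mice was not among the sample details used here.

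All values are log2 ratios of sample over reference, centred on the median of each array. The direction is likely, not stated. It rests on the reference being the first channel, and on Mmp12, the macrophage elastase known to be raised in the lungs of beta6 deficient mice. Mmp12 averaged 2.26 ± 0.61 in the TGFb1 group (SD, n = 5), 4.57 ± 0.82 in beta6 null (n = 5) and 0.26 ± 0.22 in wild type (n = 4). If the ratio ran the other way, every sign below would turn. The arrays carried 11615 to 16483 values each, and their spread ran from an SD of 0.84 to 2.01. Pairs of arrays correlated at r = 0.19 to 0.67 over the tested features. Beta6 null replicate 1 and wild type replicate 2 were the widest. A ratio to a macrophage reference says nothing of how much of a marker the cells hold, so the labelled cell type could not be checked from absolute levels. In RNA from a mixture, a change in the share of a cell type and a change in the RNA per cell cannot be told apart.

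Lat2 (Entrez 56743) is the membrane adaptor of the set. In the 5 TGFb1 arrays its log2 ratio was 2.88, 2.78, 0.63, 0.75 and 0.13. In the 5 beta6 null arrays it was 6.09, 4.59, 5.47, 3.83 and 2.72. In the 5 wild type arrays it was -0.49, 0.02, -0.34, -0.15 and 0.08. Every beta6 null array stood far above every wild type array, which lay around the reference level. The TGFb1 arrays lay above all wild type arrays, and their highest, replicates 1 and 2, overlapped the lowest beta6 null array.

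The group means of Lat2 were 1.44 ± 1.30 in the TGFb1 group, 4.54 ± 1.33 in beta6 null and -0.18 ± 0.24 in wild type (SD, n = 5 each). Lat2 was 4.72 log2 units higher in beta6 null arrays than in wild type arrays (SE 0.64), a 26.3-fold difference with a 95% interval of 10.2 to 67.7-fold. No other of the 13273 features differed by as much, with Mmp13, a collagenase, next at 4.70. The lead over Mmp13 is far smaller than the SE, and Lat2 was chosen with its difference known. Ordered by p-value in limma's fit instead, Lat2 ranked 22. It was 8.60-fold lower in the TGFb1 group than in beta6 null, a difference of -3.10 (SE 0.64). Both comparisons use the same beta6 null arrays, so a high value there enters both. Against wild type, the TGFb1 group stood 1.61 higher (SE 0.64), which is 3.05-fold with a 95% interval of 1.18 to 7.87-fold. That last difference did not pass the threshold of 0.05 in limma's fit over all features (adjusted p = 0.787), although the 5 TGFb1 arrays did not overlap the 5 wild type arrays. Over all features, 1.79% had the TGFb1 arrays wholly above wild type and 1.09% wholly below. For the beta6 null arrays the shares were 2.06% wholly above and 3.06% wholly below wild type.

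Blnk (Entrez 17060) is the cytosolic adaptor that links Syk to Btk and the phospholipases. Its log2 ratio was 3.68, 3.11, 0.15, 0.78 and 1.05 in the TGFb1 arrays. In the beta6 null arrays it was 4.37, 3.92, 4.12, 2.86 and 2.51. In the wild type arrays it was 0.91, 1.10, 0.44, 0.70 and 0.27. The beta6 null arrays again lay wholly above wild type. The TGFb1 arrays covered both ranges, with replicates 1 and 2 among the beta6 null values and replicates 3 to 5 among or near those of wild type.

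Blnk averaged 1.75 ± 1.55 in the TGFb1 group, 3.55 ± 0.82 in beta6 null and 0.68 ± 0.34 in wild type (SD, n = 5 each). It was 2.87 log2 units higher in beta6 null arrays than in wild type arrays (SE 0.61), or 7.31-fold with a 95% interval of 2.95 to 18.1-fold. In the TGFb1 group it stood -1.80 from beta6 null (SE 0.61), with a 95% interval of -3.11 to -0.49. Against wild type the TGFb1 group differed by 1.07 (SE 0.61, 95% interval -0.24 to 2.38), and this difference did not pass in limma's fit (adjusted p = 0.82).

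**Figure D1:**
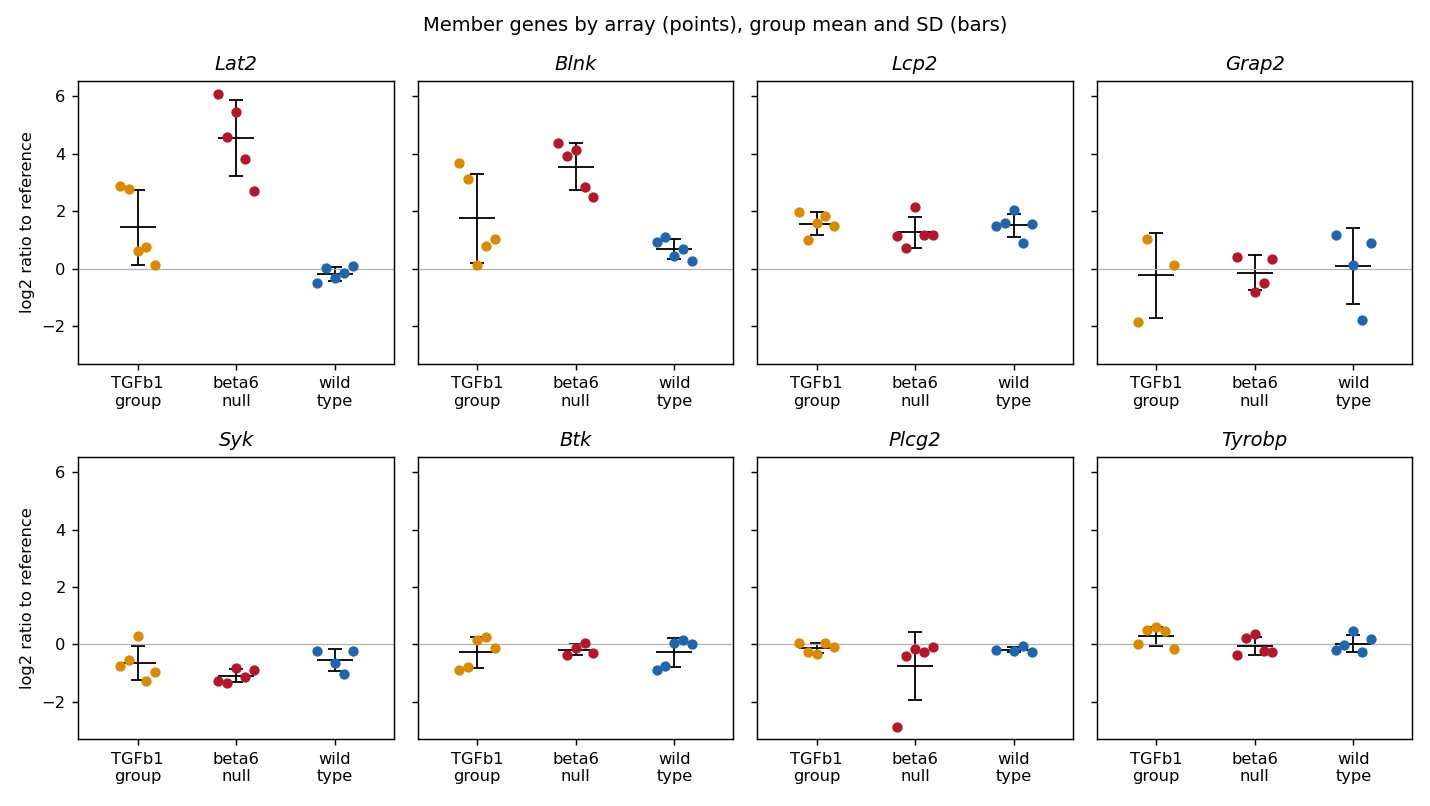
Log2 ratio to the reference (vertical axis) of the 8 measured genes on each array, with 1 point per array and bars at the group mean and SD; groups run TGFb1, beta6 null, wild type. Lat2 and Blnk are high on all 5 beta6 null arrays and on 2 of the 5 TGFb1 arrays, while the groups of the other 6 genes overlap.

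The promoter of Blnk is shown because it is the member with a large difference for which a promoter entry was at hand, and that of Lcp2, its close relative among the adaptors, stands beside it. Each is the 250 bases before the RefSeq start in GRCm38.p6, read 5′ to 3′ on the gene's strand. Capitals mark GGAA or its reverse complement TTCC, the core bound by ETS factors such as PU.1 of the myeloid lineage. Blnk lies on the minus strand (chr19:40994222-40994471) and Lcp2 on the plus strand (chr11:34046678-34046927).
Blnk: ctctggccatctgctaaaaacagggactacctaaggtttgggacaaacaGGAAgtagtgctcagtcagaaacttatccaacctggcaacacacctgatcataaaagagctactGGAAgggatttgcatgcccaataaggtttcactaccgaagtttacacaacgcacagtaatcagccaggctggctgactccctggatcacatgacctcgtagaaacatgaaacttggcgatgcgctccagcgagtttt
Lcp2: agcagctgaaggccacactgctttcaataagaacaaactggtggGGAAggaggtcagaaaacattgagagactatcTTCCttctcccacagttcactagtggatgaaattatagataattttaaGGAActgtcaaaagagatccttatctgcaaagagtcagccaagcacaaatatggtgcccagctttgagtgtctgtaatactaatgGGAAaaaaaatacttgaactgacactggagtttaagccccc

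The Blnk window held 2 copies of GGAA and that of Lcp2 held 4, counting both strands. GGAA was present in 6 of the 7 promoters found for 6 of the members, and in 93.4% of all 32851 promoters of the same length. The longer GAGGAA, which contains GGAA and is close to the PU.1 site, was present in 1 of the 7 against 23.3% of all, and in neither of the 2 shown. CAGAC, a core of the element bound by Smad proteins, the carriers of the TGFb signal, was present in 2 of the 7 against 42.2% of all, once in Lcp2 and not in Blnk. These are counts of letters in a short window, with no binding measured.

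Lcp2 has the same task as Blnk in the complex. Its log2 ratio was 1.99, 0.98, 1.58, 1.84 and 1.48 in the TGFb1 arrays, 1.13, 0.71, 2.17, 1.17 and 1.16 in the beta6 null arrays, and 1.48, 1.59, 2.03, 0.88 and 1.55 in the wild type arrays. All 15 arrays lay above the reference and the 3 groups overlapped throughout. Beta6 null differed from wild type by -0.24 (SE 0.32), with a 95% interval of -0.91 to 0.43. The TGFb1 group differed from beta6 null by 0.31 (95% interval -0.36 to 0.98) and from wild type by 0.07 (95% interval -0.60 to 0.74, adjusted p = 0.982 in limma's fit). On the fold scale the interval against wild type ran from 0.532 to 1.35-fold for beta6 null, well below the 7.31-fold of Blnk.

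Grap2 is a small adaptor that holds Lcp2 near the membrane. It had values on 11 of the 15 arrays. They were -1.85, 1.04 and 0.11 on 3 TGFb1 arrays, 0.40, -0.81, -0.50 and 0.35 on 4 beta6 null arrays, and 1.17, 0.13, -1.78 and 0.89 on 4 wild type arrays. The spread within a group was wide, so the 95% interval of beta6 null minus wild type reached from -1.88 to 1.40. A Grap2 difference of up to 2.63-fold in either direction lies within it.

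Syk is the kinase that reads the ITAM. Its log2 ratio was -0.77, -0.56, 0.30, -1.26 and -0.98 in the TGFb1 arrays, -1.27, -1.36, -0.84, -1.13 and -0.88 in the beta6 null arrays, and -0.23, -0.64, -1.04 and -0.25 in 4 wild type arrays. Beta6 null held the lowest mean, -1.09 ± 0.23 (SD, n = 5), against -0.54 ± 0.39 in wild type (n = 4), and the groups overlapped. The difference of -0.55 (SE 0.33) has a 95% interval of -1.26 to 0.15. The TGFb1 group averaged -0.65 ± 0.59 (n = 5) and differed from wild type by -0.11 (adjusted p = 0.965 in limma's fit).

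Btk is the Tec family kinase that activates the phospholipase. Its values were -0.91, -0.78, 0.16, 0.25 and -0.11 in the TGFb1 arrays, -0.39, -0.11, 0.03 and -0.29 in 4 beta6 null arrays, and -0.90, -0.74, 0.06, 0.16 and 0.03 in the wild type arrays. The spread within the TGFb1 and wild type groups, SDs of 0.54 and 0.50, exceeded every difference between group means. Beta6 null minus wild type was 0.09 with a 95% interval of -0.64 to 0.81.

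Plcg2 is the phospholipase at the end of the complex. Its values were 0.04, -0.28, -0.33, 0.03 and -0.09 in the TGFb1 arrays, -2.86, -0.42, -0.15, -0.28 and -0.11 in the beta6 null arrays, and -0.19, -0.24, -0.05 and -0.26 in 4 wild type arrays. The value of -2.86 came from beta6 null replicate 1, one of the 2 widest arrays, and all others lay close together. Beta6 null minus wild type was -0.58 (SE 0.47) with all arrays and -0.05 without that array. The TGFb1 group minus beta6 null was 0.64 with it and 0.11 without it.

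Tyrobp, the ITAM chain itself, had log2 ratios of 0.02, 0.50, 0.60, 0.45 and -0.16 in the TGFb1 arrays. In beta6 null they were -0.37, 0.23, 0.36, -0.24 and -0.25, and in wild type -0.21, -0.01, 0.45, -0.27 and 0.20. The groups overlapped, and beta6 null minus wild type was -0.09 (SE 0.26). Its 95% interval, 0.643 to 1.38-fold, is the narrowest among the 8 genes.

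Counted together, 2 of the 8 genes, Lat2 and Blnk, were called higher in beta6 null, set against wild type, and 6 were not called, where 0.949% of all features were called 0.362% higher and 0.588% lower. With TGFb1, 1 of 8, Lat2, was called lower against beta6 null, where 0.708% of all features were called, 0.58% higher and 0.128% lower. Because the 2 genes were chosen on these comparisons, nothing is read from these counts. Set against wild type, the TGFb1 group had 0 of the 8 past the threshold in limma's fit, with adjusted p from 0.787 to 1. No feature of the array passed there (0%), and 833 features, or 6.28%, had an unadjusted p under 0.05. The median difference over the 8 genes was -0.16 in beta6 null against wild type, where all features had a median of -0.05. It was 0.11 in the TGFb1 group against beta6 null, with 0.12 for all features, and 0.06 in the TGFb1 group against wild type, with 0.07 for all features.

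The estimated differences of the other 6 genes were smaller in size than those of Lat2 and Blnk. Because Lat2 and Blnk were chosen with their differences known, this contrast follows from the choice. For beta6 null minus wild type they differed by -0.58 to 0.09, for the TGFb1 group minus beta6 null by -0.09 to 0.64, and for the TGFb1 group minus wild type by -0.34 to 0.25. Their standard errors were 0.26 to 0.80. The intervals above bound each difference and do not show that the genes were equal.

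**Figure D2:**
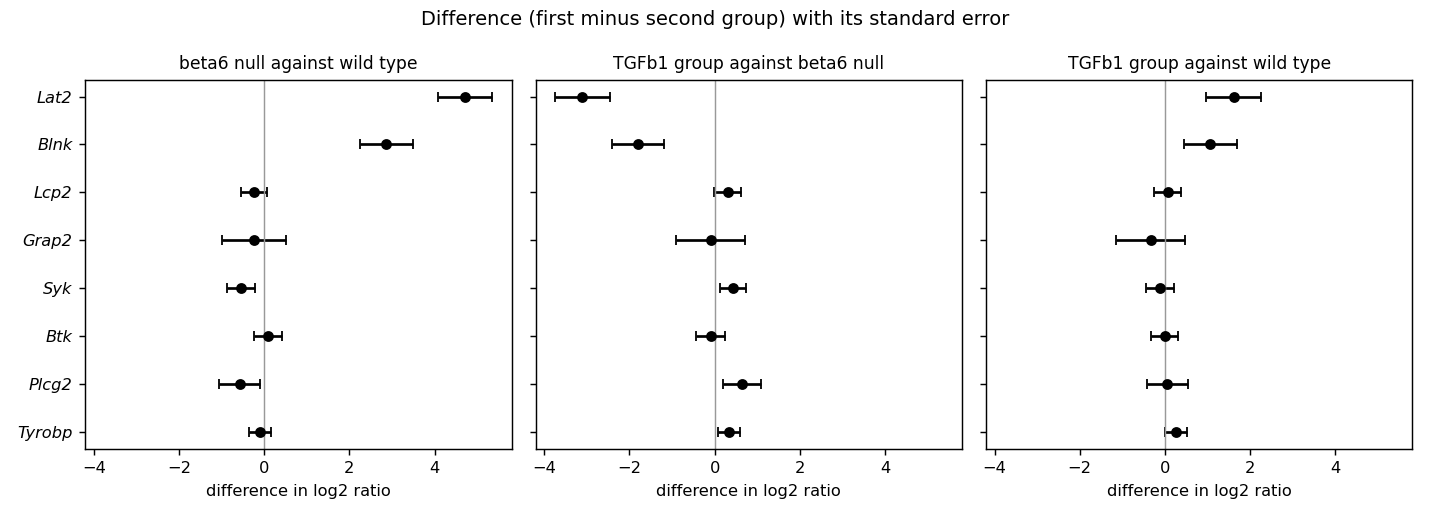
Difference of group means in log2 units (horizontal axis) of the 8 genes in the 3 comparisons, with bars of 1 standard error from the fit. Lat2 is at 4.72 and Blnk at 2.87 in beta6 null against wild type, and the other 6 genes lie between -0.58 and 0.09. Lat2 and Blnk were chosen with these differences known, so their distance from the others follows from that choice.

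The TGFb1 arrays did not behave alike for Lat2 and Blnk. Replicates 1 and 2 held 2.88 and 2.78 for Lat2 and 3.68 and 3.11 for Blnk, while replicates 3 to 5 held 0.13 to 0.75 and 0.15 to 1.05. Mmp12 did not part these arrays in the same way, with 2.66, 2.70, 2.69, 1.89 and 1.37 in the same order. The spreads of the 5 arrays were SDs of 1.40, 1.07, 1.07, 1.06 and 0.84.

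The array titles carry a running number, whose meaning the labels do not give. Replicates 1 and 2 of the TGFb1 group are numbered 168 and 169, beside 170 and 171 in beta6 null and 172 in wild type, and the other 3 TGFb1 arrays carry later numbers. The wild type array numbered 172 had Lat2 at -0.49, the lowest of its group, and Blnk at 0.91. What parts the 2 arrays from the other 3 was not tested.

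The level of Lat2 within beta6 null followed the spread of the arrays. Its order over replicates was that of the array SDs, 1.998, 1.49, 1.62, 1.11 and 0.92, with the widest array highest and the narrowest lowest. A quotient was formed with the SD of the tested features on each array, which is not the SD of all values given above. Divided in this way, Lat2 lay between 3.10 and 3.74 on all 5 beta6 null arrays, against -0.37 to 0.12 in wild type. The same quotient was 2.12 and 2.81 on TGFb1 replicates 1 and 2, and 0.18 to 0.75 on the other 3.

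Blnk had the same order over the beta6 null arrays. Its quotient was 2.23 to 2.97 in beta6 null, against 0.39 to 0.79 in wild type. On TGFb1 replicates 1 to 5 the Blnk quotient was 2.71, 3.14, 0.15, 0.78 and 1.43. Replicate 1 thus lay within the beta6 null range, replicate 2 above it, and replicate 5 between the ranges of beta6 null and wild type. With the spread of all arrays made equal, beta6 null minus wild type was 3.80 for Lat2 and 2.25 for Blnk. Blnk then missed the threshold. In that setting the TGFb1 group minus beta6 null was -2.04 for Lat2 and -0.92 for Blnk, and neither passed.

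**Figure D3:**
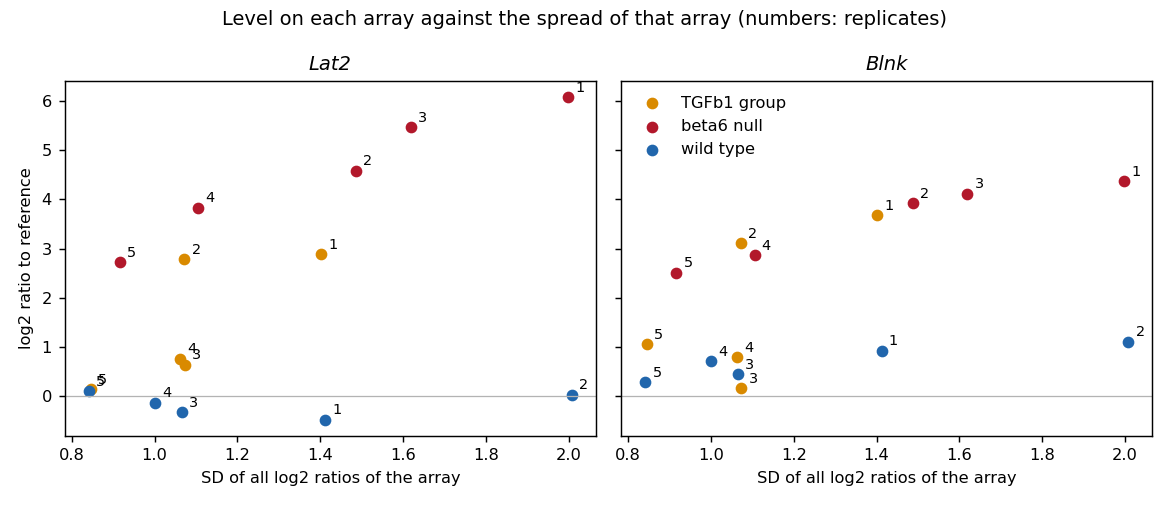
Log2 ratio of Lat2 and of Blnk (vertical axis) against the SD of all values on the same array (horizontal axis, log2 units), 1 point per array, with replicate numbers. In beta6 null both genes are higher on wider arrays. The wild type arrays stay near 0 for Lat2 at every width. For Blnk they lie between 0.27 on the narrowest wild type array and 1.10 on the widest.

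Of 10095 genes that shared 12 or more arrays with them, the 5 most like Lat2 in pattern were Rbp4 (Pearson r = 0.97 over 15 arrays), Blnk (0.94, 15 arrays), S100a4 (0.94, 15 arrays), Adgre5 (0.93, 12 arrays) and P2rx4 (0.93, 15 arrays). Rbp4 encodes a carrier of vitamin A, S100a4 a calcium-binding protein of motile cells, Adgre5 an adhesion receptor of leukocytes and P2rx4 an ion channel opened by ATP. The arrays share groups, reference and spread, so these values describe likeness only. Rbp4 read 3.20, 2.07, 0.00, -0.30 and 0.34 in the TGFb1 arrays, against 3.47 to 5.90 in beta6 null and 0.14 to 0.65 in wild type. The same 2 TGFb1 arrays that were high for Lat2 were high for Rbp4, which was picked for its likeness over these same arrays.

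The 5 genes most like Blnk were Prnp (r = 0.96, 15 arrays), Prkcb (0.96, 15 arrays), S100a4 (0.95, 15 arrays), Cbfa2t3 (0.95, 14 arrays) and Rbp4 (0.95, 15 arrays). Prnp encodes the prion protein, Prkcb a protein kinase C that acts below Btk in B cells, and Cbfa2t3 a transcriptional corepressor. Prkcb read 2.37, 2.01, -0.07, -0.67 and -0.43 in the TGFb1 arrays, and lay between 0.60 and 3.16 in beta6 null and between -0.65 and -0.25 in wild type. Replicates 1 and 2 of the TGFb1 group were the 2 high ones. Prkcb was picked for its likeness to Blnk over these same arrays, so this is no separate support. The other 6 members were not like either gene, with r of -0.53 to -0.12 with Lat2 and -0.52 to -0.19 with Blnk.

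**Figure D4:**
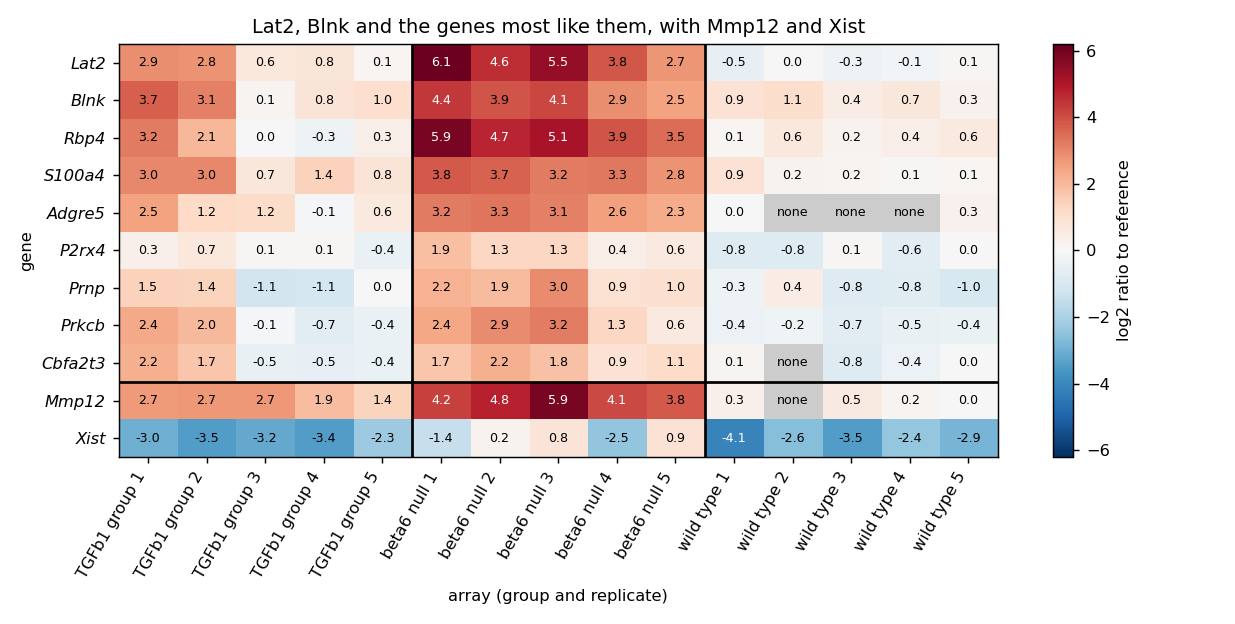
Log2 ratio of Lat2, Blnk and the genes most like them in pattern on each of the 15 arrays, shown by colour and number, with arrays in columns by group (TGFb1, beta6 null, wild type) and Mmp12 and Xist in the last rows. Lat2, Blnk and the genes like them are higher on every beta6 null array than on any wild type array. TGFb1 replicates 1 and 2 are higher than replicates 3 to 5 in Lat2, Blnk, Rbp4 and Prkcb. The genes like Lat2 and Blnk were picked for likeness over these same arrays, so the shared pattern follows from that choice.

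Around the 9 genes, 142 further genes of the pathway were listed by function, and 107 of them had enough values to be tested. In beta6 null against wild type 1 passed higher, 2 passed lower and 104 did not pass, or 2.80% called, against 0.949% of all features. With TGFb1, against beta6 null, 1 passed higher and 106 did not, or 0.935%, against 0.708% of all features. The TGFb1 group and wild type gave 0 of 107, and 0 of all features. The lists were drawn up with earlier results of these arrays known, so nothing is read from these shares. Under the alternative settings, the count in beta6 null against wild type ran from 0 to 5. The median difference of the 107 was -0.06 in beta6 null against wild type and 0.14 in the TGFb1 group against beta6 null, with -0.05 and 0.12 for all features.

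Dok2, an adaptor known to damp signals by recruiting a Ras inhibitor, was the pathway gene that rose. It averaged 0.77 ± 0.45 in the TGFb1 group, 1.94 ± 0.74 in beta6 null and 0.18 ± 0.30 in wild type (SD, n = 5 each). Dok2 stood 1.77 above wild type in beta6 null (SE 0.35, adjusted p = 0.0272 in limma's fit), and the TGFb1 group stood -1.17 from beta6 null (adjusted p = 0.133). It was 1 of 31 adaptors and exchange factors tested. Its relatives Dok1 and Dok3, named after their values were seen, differed by 0.22 and -0.31 in beta6 null against wild type and did not pass. The same holds for Lat, the T cell counterpart of Lat2, which differed by -0.16 (SE 0.55), and for Grb2, the adaptor that binds phosphorylated Lat2, which differed by 0.45 (SE 0.34).

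Pilra, an inhibitory receptor of myeloid cells, fell in beta6 null and rose with TGFb1. It averaged -1.18 ± 0.31 in the TGFb1 group, -2.85 ± 0.44 in beta6 null and -1.34 ± 0.61 in wild type (SD, n = 5 each). The differences were -1.51 in beta6 null against wild type (SE 0.32, adjusted p = 0.0408 in limma's fit) and 1.67 in the TGFb1 group against beta6 null (adjusted p = 0.0332). Both use the same beta6 null arrays. Fcgr2b, the inhibitory IgG receptor of the same list of 14 genes, differed by 2.70 in beta6 null against wild type (SE 0.68) and did not pass (adjusted p = 0.086).

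Fgr, a Src family kinase of myeloid cells, fell in beta6 null. It averaged -0.58 ± 0.62 in the TGFb1 group (SD, n = 5), -2.47 ± 0.90 in beta6 null (n = 4) and -0.36 ± 0.18 in wild type (n = 4). Beta6 null minus wild type was -2.11 (SE 0.45, adjusted p = 0.0493 in limma's fit), just inside the threshold. The TGFb1 group minus beta6 null was 1.90 and did not pass (adjusted p = 0.0667). The Src family and its regulators had 9 genes tested. Under the alternative settings, the beta6 null differences of Dok2, Pilra and Fgr from wild type passed in 17 of 27, 10 of 27 and 6 of 26. The Pilra difference of the TGFb1 group from beta6 null passed in 17 of 27.

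The 4 remaining lists held no gene that passed in any comparison. Of 21 ITAM receptors and chains the smallest p belonged to Clec4e, a receptor for mycobacterial glycolipid, at -1.66 in the TGFb1 group against wild type (adjusted p = 0.757 in limma's fit). Fcer1g, the ITAM chain that stands beside Tyrobp in macrophages, differed by 0.06 in beta6 null against wild type (SE 0.23). Of 4 Syk and Tec family kinases it was Tec, at -0.68 in the TGFb1 group against beta6 null (adjusted p = 0.511).

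Of 21 lipid enzymes and calcium genes the smallest p belonged to Prkcb, which stood 2.51 above wild type in beta6 null (SE 0.62, adjusted p = 0.0825 in limma's fit). Of 7 phosphatases and ubiquitin ligases it was Ptpn18, at -1.06 in the TGFb1 group against beta6 null (adjusted p = 0.174). Neither passed the threshold.

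**Figure D5:**
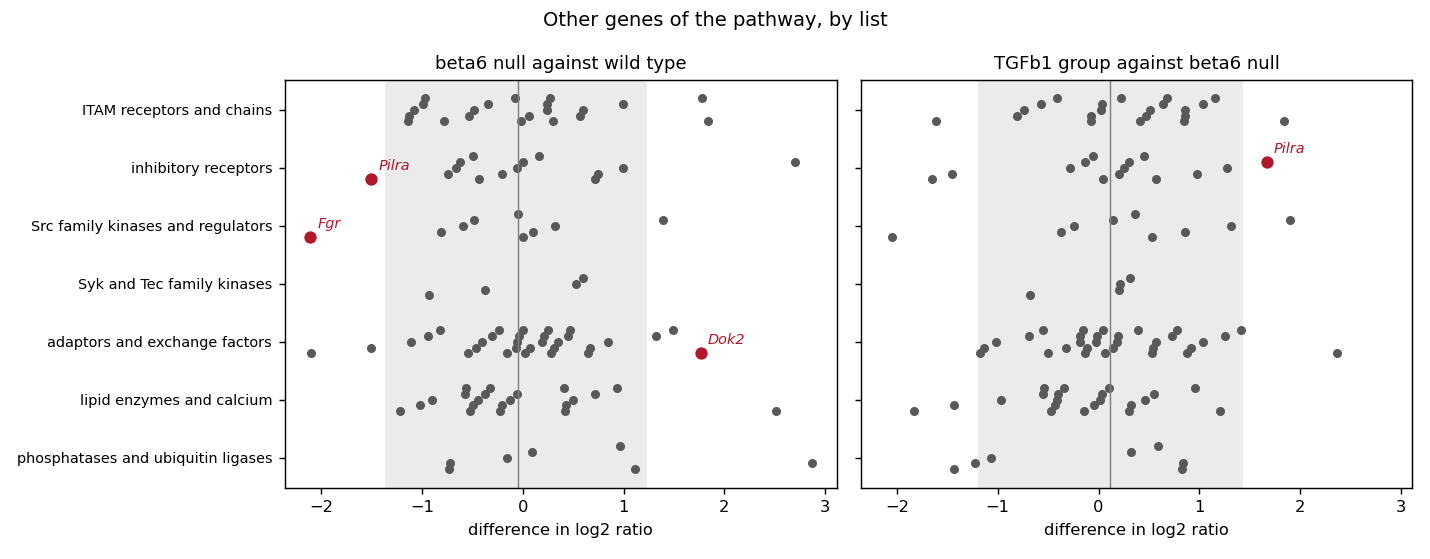
Difference of group means in log2 units (horizontal axis) of each pathway gene tested, 1 point per gene, by list, for beta6 null minus wild type (left) and the TGFb1 group minus beta6 null (right); larger red points passed, the grey band spans the 5th to the 95th percentile of all features and the line is their median. In beta6 null against wild type the genes that passed are Dok2 at 1.77, Pilra at -1.51 and Fgr at -2.11.

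Because Blnk and Lat2 are also made by B cells and mast cells, markers of other cell types were read beside them. None of 9 B cell markers tested passed in any comparison. The mean log2 ratio of these markers per array was -0.81 to 0.02 in the TGFb1 group, 0.28 to 0.75 in beta6 null and -0.52 to 0.27 in wild type. The beta6 null arrays thus lay above both other groups, but only just above the highest wild type array. In beta6 null against wild type 6 of the 9 markers lay above 0 and 3 below. Cd79b, a chain of the B cell receptor, averaged -1.02 in the TGFb1 group, 0.59 in beta6 null and -1.25 in wild type, while its partner Cd79a averaged -0.13, -0.54 and -0.78 in the same groups. Ighm averaged 0.10, 2.09 and 0.61 in the same order, and Cd22 averaged 0.55, 0.68 and 1.35. The part of B cells in the Blnk and Lat2 values was not tested.

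Of 5 mast cell and basophil markers 0 passed, with means of -1.37 to 0.39 in the TGFb1 group, -0.08 to 0.41 in beta6 null and -0.94 to 0.60 in wild type, so the groups overlapped. The 8 dendritic cell and monocyte markers averaged -0.69 to -0.16 in the TGFb1 group, 0.17 to 0.83 in beta6 null and -0.57 to 0.10 in wild type. In beta6 null against wild type 7 of the 8 lay above 0 and none of these passed, with a median of 1.13 over the list. Ly75, the 1 below 0, fell by 2.72 (adjusted p = 0.00117 in limma's fit), and Itgae fell in the TGFb1 group against beta6 null by 3.89 (adjusted p = 0.0332). The 14 alveolar macrophage markers averaged -1.03 to -0.44 in the TGFb1 group, -2.21 to -1.84 in beta6 null and -1.44 to -0.42 in wild type, and 3 of them, Fabp1, Krt19 and Olr1, fell in beta6 null (21.4%, against 0.588% of all features called lower). With TGFb1, all 14 lay above beta6 null and 4 of them, Fabp1, Krt19, Olr1 and Pparg, passed (28.6%, against 0.58% of all features called higher). The marker lists were chosen with earlier results of these arrays known, so nothing is read from these shares. The part of these cell types in the member values was not tested.

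Xist, the RNA that silences 1 X chromosome in female cells, also moved with the groups. It was -3.01, -3.48, -3.17, -3.44 and -2.27 in the TGFb1 arrays, -1.45, 0.22, 0.79, -2.46 and 0.88 in beta6 null, and -4.14, -2.63, -3.46, -2.37 and -2.89 in wild type. On 4 of the 5 beta6 null arrays Xist lay above every array of the other groups. There Xist, and with it a possible difference in the sex of the mice, cannot be told apart from group. The other beta6 null array, replicate 4, had Lat2 at 3.83 and Blnk at 2.86, which is 1 array only. The part of sex in the Lat2 and Blnk values was not tested. With Xist as a covariate Lat2 differed by 5.17 (SE 1.05) and Blnk by 2.96 (SE 1.01) in beta6 null against wild type, and no feature passed in either comparison.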

How the data were processed

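The authors deposited 1 log ratio for each probe on each of 15 arrays, taken as log2 here. Scanner, dyes, background correction and normalization are not given in the sources used here. Base and direction of the ratio stay unknown, and the array medians of the deposited values lie near 0. Base 10 was set aside because the largest value, 9.49, would on that base exceed a scanner's range. This does not decide between base 2 and the natural log. Base 2 was assumed, and every fold value rests on that.

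Of 17225 probes, 30 control spots were left out, and 13972 of the others had 1 symbol in the platform annotation, 13 several and 3210 were not listed. Symbols were updated through Entrez IDs with a RefSeq table (GRCm38.p6, names only). Probes of 1 gene were averaged (988 genes). Array medians were set to 0, and a feature needed 3 or more values in every group (13273 did). With limma 3.58.1 in R 4.3.3, 1 linear model of the 3 groups was fitted to the 15 arrays (lmFit, eBayes). P-values were adjusted by Benjamini-Hochberg over all features, and "called" or "passed" means an adjusted p under 0.05. Replicate numbers follow accession order and only name samples. Errors are SDs over arrays or standard errors of the fit, and intervals are 95% intervals of the fit, not adjusted for the number of features. Precision is limited by how many arrays there are.

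The members and gene lists were chosen with earlier results of these data known. Named were all members, pathway genes that passed (or the smallest p of a list), the 5 genes most like Lat2 and Blnk by Pearson r, Mmp12 and Xist; markers and relatives named beside them were chosen after their values were seen. T and NK cell, platelet and general macrophage markers gave 0 calls in each comparison, and neutrophil markers gave 1, S100a8, higher in beta6 null, set against wild type. The steps were run on simulated data with independent noise for each feature and the same noise level on every array. The unequal spread of the real arrays was therefore not part of that test. Alternatives covered centring, scaling, filters, arrays left out, covariates and weights.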

Additional observations from a re-analysis of the deposited data

Results flagged for a closer look

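Plcg2, the phospholipase of the complex, had a log2 ratio of -2.861 on beta6 null replicate 1, while the other 4 beta6 null arrays lay between -0.42 and -0.11. The gap to the nearest array was 0.886 of the whole range of the group, above Dixon's critical value for 5 samples. Of 23 groups of member values examined in this way this was the 1 that stood out, and chance alone marks about 1 group in 20. The same array had the widest values of beta6 null. Its part in the Plcg2 value was not tested.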

How the results depend on the processing

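No paired analysis was possible because the replicate numbers only name samples in accession order. In beta6 null against wild type, 126 features passed (48 higher, 78 lower). The count was 76 after quantile normalization (40 higher, 36 lower), 61 with equal spread (30 higher, 31 lower), 45 with only the 2 groups compared, 190 without the 2 widest arrays, 78 without the 2 arrays whose title numbers lie apart, 64 with the last digit of the title as a block, 0 with Xist as a covariate (926 at an unadjusted p under 0.05) and 396 with array weights. Leaving out 1 array gave 64 to 154, with 72 without beta6 null replicate 2 and 81, 68, 80 and 64 without wild type replicates 1, 3, 4 and 5.

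In the TGFb1 group against beta6 null, 94 passed (77 higher, 17 lower). The count was 15 after quantile normalization (8 higher, 7 lower), 11 with equal spread (8 higher, 3 lower), 220 with values on all 15 arrays, 321 without the 2 widest arrays, 30 without the 2 numbered apart, 43 with the title block, 0 with Xist (1096 unadjusted) and 648 with array weights. Leaving out 1 array gave 23 to 318, with 40, 49, 24 and 23 without TGFb1 replicates 1 to 4, 38 and 52 without beta6 null replicates 2 and 4, and 318 without wild type replicate 2. Against wild type the TGFb1 group had 0 calls, and 1 with only the 2 groups compared, without beta6 null replicate 1, without TGFb1 replicate 5 and with array weights.

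Lat2 in beta6 null against wild type stayed between 3.74 and 5.17 and passed in 27 of 28 alternatives, all but the Xist covariate. Blnk stayed between 2.25 and 3.13 and passed in 16 of 28. Lat2 in the TGFb1 group against beta6 null stayed between -3.56 and -2.04 and passed in 12 of 28. The 2 genes were chosen on these comparisons. These counts therefore describe how the calls depend on processing and are no support for the differences. Small differences that had not passed changed sign in all 3 comparisons. Over all alternatives, beta6 null minus wild type ran from -0.868 to 0.412 for Grap2, from -0.128 to 0.197 for Btk and from -0.208 to 0.017 for Tyrobp. The TGFb1 group minus beta6 null ran from -0.674 to 0.298 for Grap2 and from -0.222 to 0.069 for Btk. Others were differences of the TGFb1 group from wild type. With 1 array left out, Pilra ran from -0.003 to 0.335, Lcp2 from -0.088 to 0.216, Btk from -0.157 to 0.156, Grap2 from -0.962 to 0.019 and Syk from -0.351 to 0.039. Pilra was also -0.227 after quantile normalization, -0.153 with equal spread, -0.003 without the 2 widest arrays and -0.144 with array weights. Btk was 0.032 with the title block and Grap2 0.366 with array weights. The cause of these changes was not tested, beyond the smaller number of arrays where some were left out.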

Other observations

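The listed ITAM receptors and chains lay on both sides of 0, and 0 of 21 passed in each comparison of limma's fit (adjusted p of at least 0.212). Clec7a, the receptor for fungal beta-glucan, averaged -0.48 in the TGFb1 group, -1.52 in beta6 null and -0.39 in wild type. Fcgr1, the high-affinity IgG receptor, averaged -0.17 in the TGFb1 group, -2.00 in beta6 null and -0.87 in wild type. Clec5a, a partner of Tyrobp, averaged -1.04 in the TGFb1 group, -0.63 in beta6 null and -2.40 in wild type. These genes were picked after their values were seen.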
